A study of Mus musculus with 9 samples.

Results

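The subunits of the mitochondrial respiratory chain and of ATP synthase were examined in mouse regulatory T (Treg) cells with and without the Hippo kinases Mst1 and Mst2. Genes were taken by their symbol alone, from names that begin with Nduf and a subunit letter and number, Sdha to Sdhd, Uqcr, Cox4 to Cox8 or Atp5. This gave 80 of the 22180 genes measured. The 80 comprise 78 subunit genes (31 of complex I, 4 of complex II, 7 of complex III, 19 of complex IV and 17 of complex V) and the pseudogenes Atp5c1-ps and Uqcrh-ps1, which belong to no complex. Ndufa4 and its relative Ndufa4l2 were placed in complex IV, where the Ndufa4 protein is now known to reside despite its name. Another 9 symbols that fit the rule, among them Cox6c, Ndufb2, Ndufs6 and Uqcr10, were found only on probe sets that name several genes and were not used here.

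The arrays held 9 samples from C57BL/6 mice, 5 wild-type (WT) and 4 Mst1/Mst2-null (KO). The marrow donors of both groups had the Foxp3YFP-Cre allele, which puts YFP and Cre under Foxp3 control, and KO donors also carried floxed Stk4, which encodes Mst1, and floxed Stk3, which encodes Mst2 (Foxp3YFP-CreStk4f/fStk3f/f). Deletion is thus tied to cells that have expressed Foxp3. Marrow of either donor was mixed with an equal share of WT CD45.1 marrow and given to RAG1-/- recipients, which make no mature T or B cells of their own. The donor-derived CD4+YFP+ cells, CD45.2+ and CD45.1-, were sorted 2 months later. Whether each sample is its own chimera is not stated, and the p-values reflect only how far these arrays scatter, which may be technical. Serial numbers in the sample titles run through all WT samples before the KO samples, so any effect of that order and the genotype cannot be told apart. Values are on the log2 scale of RMA, a summary of the probes of each probe set, and differences are KO minus WT. Levels of different genes are not set against each other, because each probe set has its own response.

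Oxidative phosphorylation passes electrons from NADH (complex I) and succinate (complex II) through complexes III and IV to oxygen, and the proton gradient so built drives ATP synthase (complex V). Most subunits are encoded in the nucleus and imported, while a small hydrophobic core is encoded in mitochondrial DNA. Treg cells rely on mitochondrial respiration more than many effector T cells do, and loss of respiratory chain function in them is known to impair suppression.

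The deleted gene Stk4 read between 7.84 and 8.09 in WT samples, and 7.55, 7.83, 7.50 and 7.69 in KO samples 1 to 4. All KO values were lower, KO sample 2 only just, and the difference of -0.27 did not pass (limma adjusted p = 0.146); whether this probe set lies in the deleted exons is not known, and Stk3 was not analysed here. Foxp3, the factor that defines Treg cells, lay between 10.66 and 10.77 in WT and between 10.59 and 10.79 in KO samples. Of the 7 Treg markers measured 1 fell, none rose and 6 did not pass. Ikzf2, which encodes the Treg factor Helios, fell by 0.72 in log2 units (limma adjusted p = 0.033). Cd3e and Cd3g, chains of the T cell receptor complex, were lower in all KO than in all WT samples without passing (differences -0.31 and -0.32, limma adjusted p = 0.0619 and 0.124), Cd4 differed by -0.18, Ctla4 by -0.088 and Il2ra by 0.056. The mean level of the 7, relative to each gene's mean over all samples, was 0.062 to 0.14 in WT and -0.24 to -0.052 in KO samples, and its part in the subunit differences was not tested. Of 9 B cell markers measured, 9 had a higher mean in KO samples and none passed the test. Their mean level, relative to each gene's mean over all samples, ran from -0.52 to 0.41 in WT and from -0.17 to 0.67 in KO samples, highest in KO sample 4, and 2 of the 9 lie below 4.05, the median of all probe sets. The 12 myeloid markers, 6 of them below that median, ran from -0.33 to 0.23 in WT and from -0.31 to 0.85 in KO samples, again highest in KO sample 4. None of the 9 CD8 T and NK cell markers and none of the 3 erythroid markers measured passed. In bulk samples, fewer cells of a type and less RNA per cell cannot be told apart.

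Across the 78 subunit genes, 3 fell in KO samples (Atp5a1, Sdha and Ndufa8), none rose and 75 did not pass (limma, Benjamini-Hochberg adjustment over all genes, adjusted p under 0.05). Over all 22180 genes 2.32% passed, 1.89% lower and 0.428% higher in KO samples. Subunit genes are mostly bright, and 72 of the 78 had a mean above the median of all probe sets. Among these 72 the 3 calls make up 4.17%, near the 4.3% of the 11321 genes of that brightness (3.56% lower and 0.742% higher), so the number of calls is no result about respiratory genes. By unadjusted p under 0.05, 11 subunit genes were lower and 1 was higher, where 9.8% of all genes were lower and 5.06% higher, and 17.4% and 6.21% of the brighter ones. Differences were small throughout and ran from -0.41 to 0.29. The median difference over the 72 was -0.086, against -0.037 over the 11321 brighter genes, and 54 of the 72 (75%) had a lower mean in KO samples, against 59.3% of the brighter genes and 49.3% of all genes. The groups did not overlap for 5 genes that were lower in KO samples (4.4% of all genes, 8.08% of the brighter ones) and for 1 that was higher (1.76% and 2.34%).

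**Figure D1:**
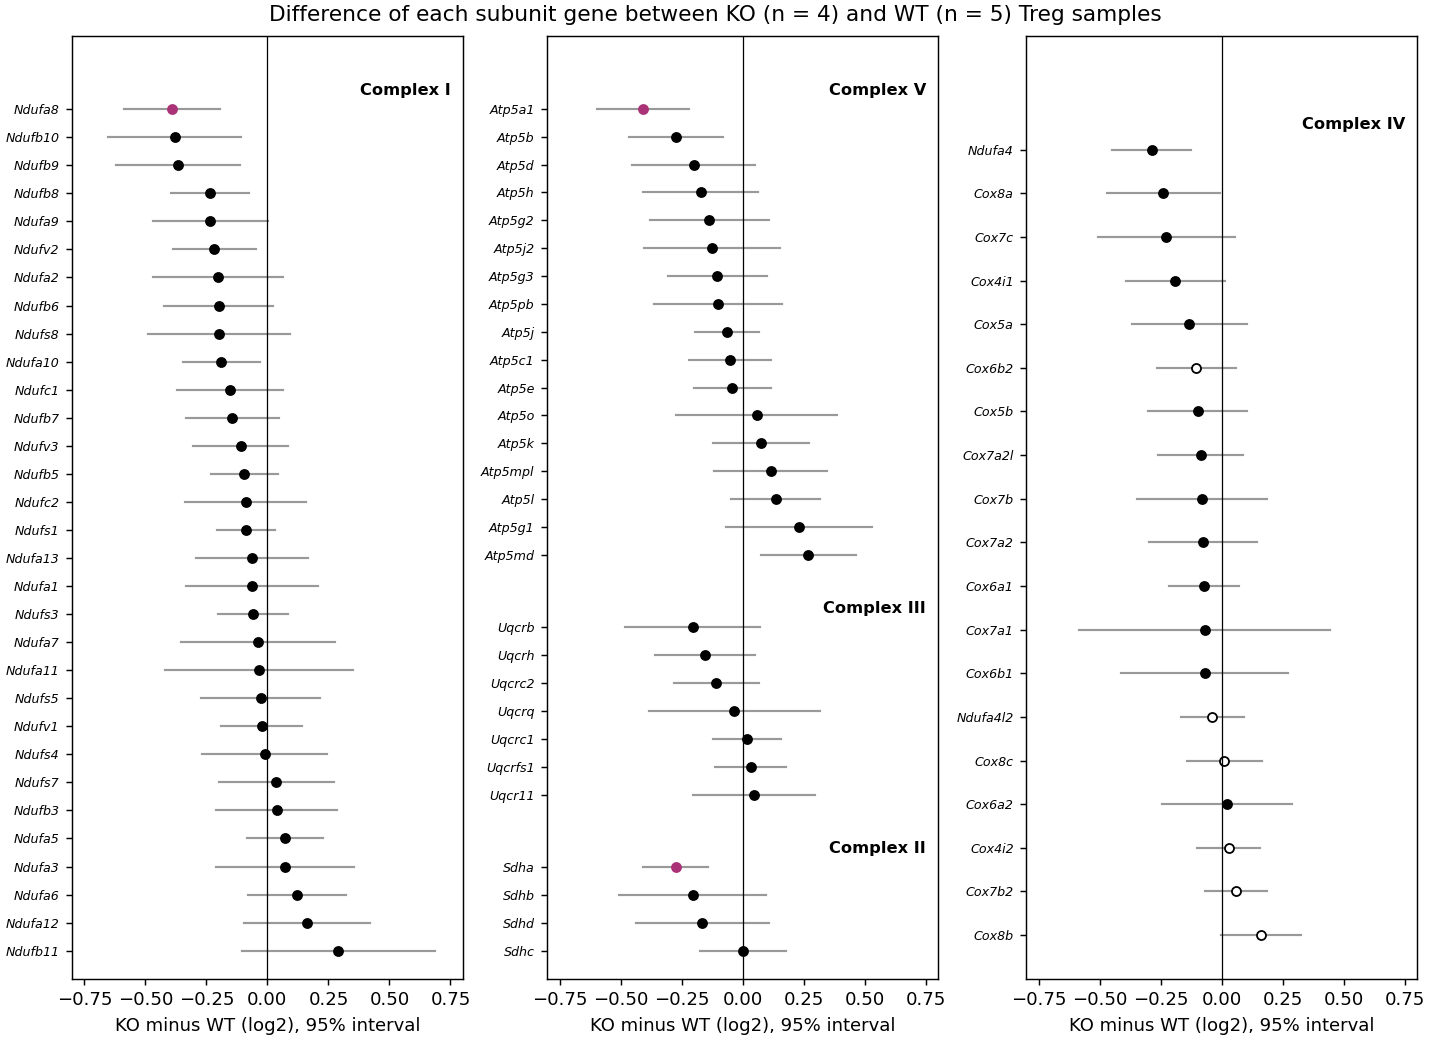
Difference between KO (n = 4) and WT (n = 5) samples for each of the 78 subunit genes, by complex, on the log2 scale. Points are fitted differences and lines are 95% intervals from limma; Atp5a1, Sdha and Ndufa8 passed the test, and 56 of the 78 points lie below 0.

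The gene with the smallest p was Atp5a1 (probe set 17352020), which encodes the alpha subunit of the F1 head of ATP synthase. Atp5a1 read 9.73, 9.64, 9.68, 9.64 and 9.83 in WT samples 1 to 5 and 9.31, 9.53, 9.21 and 9.15 in KO samples 1 to 4. Each KO value lay below each WT value, with KO sample 2 nearest to the WT range. Its mean was 9.70 ± 0.080 in WT (SD, n = 5) and fell to 9.30 ± 0.17 in KO samples (SD, n = 4), 1.33-fold lower (difference -0.41 ± 0.085 SE, limma adjusted p = 0.0355). Without KO sample 2 its limma adjusted p was 0.0113, and without any other single sample it lay between 0.0713 and 0.1.

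Sdha (probe set 17294377), the flavoprotein of succinate dehydrogenase, takes part in both the tricarboxylic acid cycle and the respiratory chain. Sdha read 8.69, 8.69, 8.72, 8.74 and 8.72 in WT samples 1 to 5 and 8.31, 8.44, 8.49 and 8.51 in KO samples 1 to 4. The groups did not overlap, and here KO sample 2 did not stand above the other KO samples. The WT mean of 8.71 ± 0.023 (SD, n = 5) fell 1.21-fold, to 8.44 ± 0.091 in KO samples (SD, n = 4; difference -0.27 ± 0.060 SE, limma adjusted p = 0.0451). The limma adjusted p was 0.0446 without KO sample 4 and between 0.0636 and 0.111 without any other single sample.

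Ndufa8 (probe set 17370273) encodes an accessory subunit of complex I on the side of the intermembrane space. Ndufa8 read 8.47, 8.48, 8.30, 8.41 and 8.42 in WT samples 1 to 5 and 7.96, 8.22, 7.80 and 8.12 in KO samples 1 to 4, again without overlap. The WT mean of 8.42 ± 0.072 (SD, n = 5) fell 1.31-fold, to 8.03 ± 0.18 in KO samples (SD, n = 4; difference -0.39 ± 0.088 SE, limma adjusted p = 0.0497). Its second probe set, 17384525, gave a difference of -0.19 that did not pass (limma adjusted p = 0.443 over all probe sets with 1 symbol, where the first probe set reached 0.0515). Ndufa8 passed without KO sample 2 (limma adjusted p = 0.0242) and did not pass without any other single sample (0.0586 to 0.126).

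The promoters of Sdha and Ndufa8 are shown because both genes fell and both carry the motif of NRF1, a transcription factor named for its part in driving respiratory genes. For Atp5a1, which also fell, no promoter window was given. Whether the motif has a part in the fall was not tested. The 250 bases before the start are given, from RefSeq on build GRCm38.p6, both genes being on the minus strand, at chr13:74350241-74350490 for Sdha and chr2:36049339-36049588 for Ndufa8. Capitals mark this motif, GCGC and TGCGC with 1 base of any kind between them, on either strand. Matches begin 98, 55 and 10 bases before the start of Sdha and 30 bases before that of Ndufa8.
Sdha: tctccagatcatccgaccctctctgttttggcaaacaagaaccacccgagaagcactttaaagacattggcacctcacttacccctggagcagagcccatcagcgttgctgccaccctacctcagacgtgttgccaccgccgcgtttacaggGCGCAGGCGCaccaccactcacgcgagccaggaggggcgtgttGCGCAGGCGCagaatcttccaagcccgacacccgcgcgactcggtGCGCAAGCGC
Ndufa8: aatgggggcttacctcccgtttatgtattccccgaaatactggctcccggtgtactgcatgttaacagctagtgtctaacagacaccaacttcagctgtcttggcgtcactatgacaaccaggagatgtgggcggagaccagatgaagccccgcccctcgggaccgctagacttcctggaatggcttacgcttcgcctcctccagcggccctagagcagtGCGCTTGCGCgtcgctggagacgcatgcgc

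Shared promoter motifs were counted in windows of 300 bases, 250 before and 50 after the start, which RefSeq gave for 64 of the 78 subunit genes (69 windows). The NRF1 motif was in 23.2% of these windows and in 6.38% of the 21262 windows of protein-coding genes. The ETS motif CCGGAAG, bound by GABPA among others, was in 24.6% against 11.6%, and AAGATGGC, the motif of YY1, in 13% against 3.05%. AAGGTCA, a site for ESRRA and other nuclear receptors, was in 8.7% against 4.08%, while TATAAA was in 13% against 12.6%. At least 1 of the NRF1, ETS and YY1 motifs was in 37 of the 69 windows (53.6% against 18.9%), with a median GC content of 57.3% against 56.3%. Both strands were searched, each motif was counted on its own, and matches of different motifs overlapped in 0 of the 69 windows. Matches were found in genes whose means differed in either direction: Ndufb8, lower in KO samples, has a YY1 match and Atp5md, higher in KO samples, has an ETS match. Of the 15 genes with an NRF1 match, Atp5k, Atp5o, Ndufa5, Ndufa6 and Uqcrc1 had a higher mean in KO samples and the others a lower one. A match says only that these letters are in the window.

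Complex I, the NADH dehydrogenase, is built from core subunits that carry the flavin and iron-sulfur clusters and from accessory subunits around them. Of 31 genes measured, Ndufa8 fell, none rose and 30 did not pass, with 24 means lower and 7 higher in KO samples (median -0.087). Ndufv2, an iron-sulfur subunit of the NADH-binding module, had the smallest p of the 6 core genes. Ndufv2 read 7.79, 7.59, 7.91, 7.86 and 7.75 in WT and 7.67, 7.54, 7.57 and 7.47 in KO samples (difference -0.22, limma adjusted p = 0.202), and its groups overlapped because KO sample 1 exceeded WT sample 2. Ndufs8, which carries iron-sulfur clusters toward the quinone site, read 7.33, 7.26, 7.53, 7.26 and 7.17 in WT and 6.99, 7.44, 6.76 and 7.26 in KO samples (difference -0.20, limma adjusted p = 0.548). Of its KO values 2 lay within the WT range and 2 below it.

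The remaining 4 core genes differed by at most 0.087. Ndufs1, the large iron-sulfur subunit, read 6.89, 6.84, 6.84, 6.83 and 6.88 in WT and 6.71, 6.83, 6.73 and 6.80 in KO samples, a difference of -0.087 (95% interval -0.21 to 0.033). Ndufv1, which binds NADH and the flavin, read 7.85, 7.83, 7.87, 7.68 and 7.65 in WT and 7.82, 7.86, 7.63 and 7.71 in KO samples, a difference of -0.023 (95% interval -0.19 to 0.14). The groups of both genes overlapped. Ndufs3, of the arm that passes electrons to quinone, read 6.35, 6.37, 6.35, 6.46 and 6.37 in WT and 6.37, 6.17, 6.37 and 6.38 in KO samples (95% interval of the difference -0.20 to 0.085). Here only KO sample 2 lay below the WT range. Ndufs7, which holds the last cluster before quinone, read 6.95, 6.93, 6.85, 6.86 and 6.93 in WT and 6.93, 7.23, 6.61 and 6.99 in KO samples (95% interval -0.20 to 0.27), so that its KO samples spread around the WT values.

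Among the 25 accessory subunits of complex I, 19 means were lower in KO samples, and the groups of Ndufa8 and Ndufa10 did not overlap (KO samples lower). Ndufb10, of the membrane arm, read 8.17, 7.92, 7.84, 8.16 and 8.14 in WT and 7.35, 7.97, 7.68 and 7.66 in KO samples (difference -0.38, limma adjusted p = 0.16). Ndufb9, also of the membrane arm, read 9.15, 8.92, 8.97, 8.68 and 8.81 in WT and 8.58, 8.63, 8.25 and 8.70 in KO samples (difference -0.37, limma adjusted p = 0.149). In each of these genes 3 of 4 KO samples lay below the WT range, and the exception was KO sample 2 for Ndufb10 and KO sample 4 for Ndufb9. Ndufb8, a further membrane arm subunit, read 7.12, 6.87, 7.02, 6.98 and 7.06 in WT and 6.70, 6.69, 6.82 and 6.90 in KO samples (difference -0.23, limma adjusted p = 0.144).

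Higher means were fewer in complex I. Ndufb11, encoded on the X chromosome, read 5.75, 5.19, 5.75, 5.42 and 5.75 in WT and 6.38, 5.77, 5.79 and 5.52 in KO samples (difference 0.29, limma adjusted p = 0.509). Ndufa12 read 8.82, 8.67, 8.82, 8.82 and 8.81 in WT and 8.92, 9.30, 8.61 and 8.98 in KO samples (difference 0.16, limma adjusted p = 0.587). Here 3 KO samples were above every WT sample and KO sample 3 was below, and without KO samples 2 and 4 the difference was -0.024.

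Complex II, succinate dehydrogenase, has 4 subunits, all encoded in the nucleus and all measured. Sdha fell and the other 3 did not pass. Sdhb, the iron-sulfur subunit that receives electrons from Sdha, read 7.32, 7.07, 7.34, 6.84 and 6.80 in WT and 6.92, 6.99, 6.59 and 6.97 in KO samples (difference -0.20, limma adjusted p = 0.546). Of its KO values 3 lay within the WT range and that of KO sample 3 below it. Sdhd, a membrane anchor, read 6.47, 6.32, 6.48, 6.73 and 6.58 in WT and 6.24, 6.49, 6.05 and 6.63 in KO samples (difference -0.16, limma adjusted p = 0.6). Sdhc, the other anchor, read 7.36, 7.08, 7.01, 7.08 and 7.03 in WT and 7.17, 7.14, 7.07 and 7.06 in KO samples, a difference of 0.0011 (95% interval -0.17 to 0.18). The complex II median of -0.18 was -0.088 without KO sample 3.

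Complex III carries electrons from quinol to cytochrome c. None of its 7 genes passed, 4 means were lower and 3 higher, and the median was -0.035. Uqcrfs1, the Rieske iron-sulfur protein, read 6.05, 5.99, 5.98, 5.98 and 5.79 in WT and 5.94, 6.02, 5.98 and 6.03 in KO samples (95% interval of the difference -0.11 to 0.18). Uqcrc1, a core protein, read 7.60, 7.57, 7.54, 7.48 and 7.55 in WT and 7.54, 7.70, 7.55 and 7.47 in KO samples (95% interval -0.12 to 0.16). Both sets of values overlapped nearly whole. Uqcrc2, the other core protein, read 8.25, 8.07, 8.10, 8.13 and 8.07 in WT and 8.04, 8.20, 7.85 and 7.98 in KO samples (difference -0.11, limma adjusted p = 0.591).

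KO sample 2 was the highest KO sample for each of the 4 small subunits of complex III measured. Uqcrh, which helps cytochrome c dock, read 8.68, 8.68, 8.78, 8.74 and 8.69 in WT and 8.44, 8.87, 8.50 and 8.43 in KO samples (difference -0.15, limma adjusted p = 0.503). KO sample 2 was above every WT sample and the other 3 were below every WT sample. The limma adjusted p was 0.0509 without KO sample 2 and up to 0.688 without another single sample. Uqcrb, a quinone-side subunit, read 8.40, 8.22, 7.95, 8.35 and 8.48 in WT and 7.97, 8.30, 7.83 and 8.19 in KO samples (difference -0.20, limma adjusted p = 0.507).

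Complex IV, cytochrome c oxidase, passes electrons to oxygen. None of its 19 genes passed and the median was -0.075. All 10 widely expressed subunits had a lower mean in KO samples (median -0.12). Ndufa4 was nearest to the threshold. It read 9.98, 9.84, 9.84, 9.82 and 9.86 in WT and 9.45, 9.75, 9.62 and 9.50 in KO samples, without overlap (difference -0.29 ± 0.073 SE, limma adjusted p = 0.0798). Without KO sample 2 its limma adjusted p was 0.0335, and without another single sample it was up to 0.176. Ndufa4 passed in 1 of these 9 fits. Cox8a read 9.58, 9.62, 9.55, 9.47 and 9.58 in WT and 9.44, 9.60, 9.07 and 9.17 in KO samples (difference -0.24, limma adjusted p = 0.313), and only KO sample 2 lay within the WT range.

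Several complex IV subunits have isoforms restricted to some tissues. Cox4i1, the common isoform of subunit 4, read 9.94, 9.89, 9.87, 9.94 and 9.89 in WT and 9.58, 9.95, 9.50 and 9.83 in KO samples (difference -0.19, limma adjusted p = 0.374), while Cox4i2, its lung isoform, was under that median of all probe sets in both groups. Cox6a1, the common isoform of subunit 6a, read 10.44, 10.40, 10.40, 10.43 and 10.45 in WT and 10.20, 10.45, 10.33 and 10.43 in KO samples (difference -0.072, limma adjusted p = 0.674). Cox6a2, the heart and muscle isoform, read 5.11, 5.26, 5.00, 5.31 and 5.42 in WT and 5.25, 4.92, 5.49 and 5.31 in KO samples (difference 0.021). These values overlapped. Cox7a2, the common isoform of subunit 7a, read 9.38, 9.24, 8.98, 9.30 and 9.35 in WT and 9.02, 9.36, 9.08 and 9.24 in KO samples (difference -0.075, limma adjusted p = 0.797). Cox7a1, the heart and muscle isoform, read 4.10, 4.10, 4.24, 4.17 and 4.10 in WT and 4.04, 4.95, 3.77 and 3.53 in KO samples, with KO sample 2 far above the other 3. Those 3 values lie below the median of all probe sets, and the WT values lie just above it. Of the 8 tissue-restricted genes, 6 (Cox4i2, Cox6b2, Cox7b2, Cox8b, Cox8c and Ndufa4l2) were under that median, so no fold is given for them. Cox8b read 3.33, 3.40, 3.36, 3.40 and 3.23 in WT and 3.66, 3.56, 3.40 and 3.40 in KO samples.

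**Figure D2:**
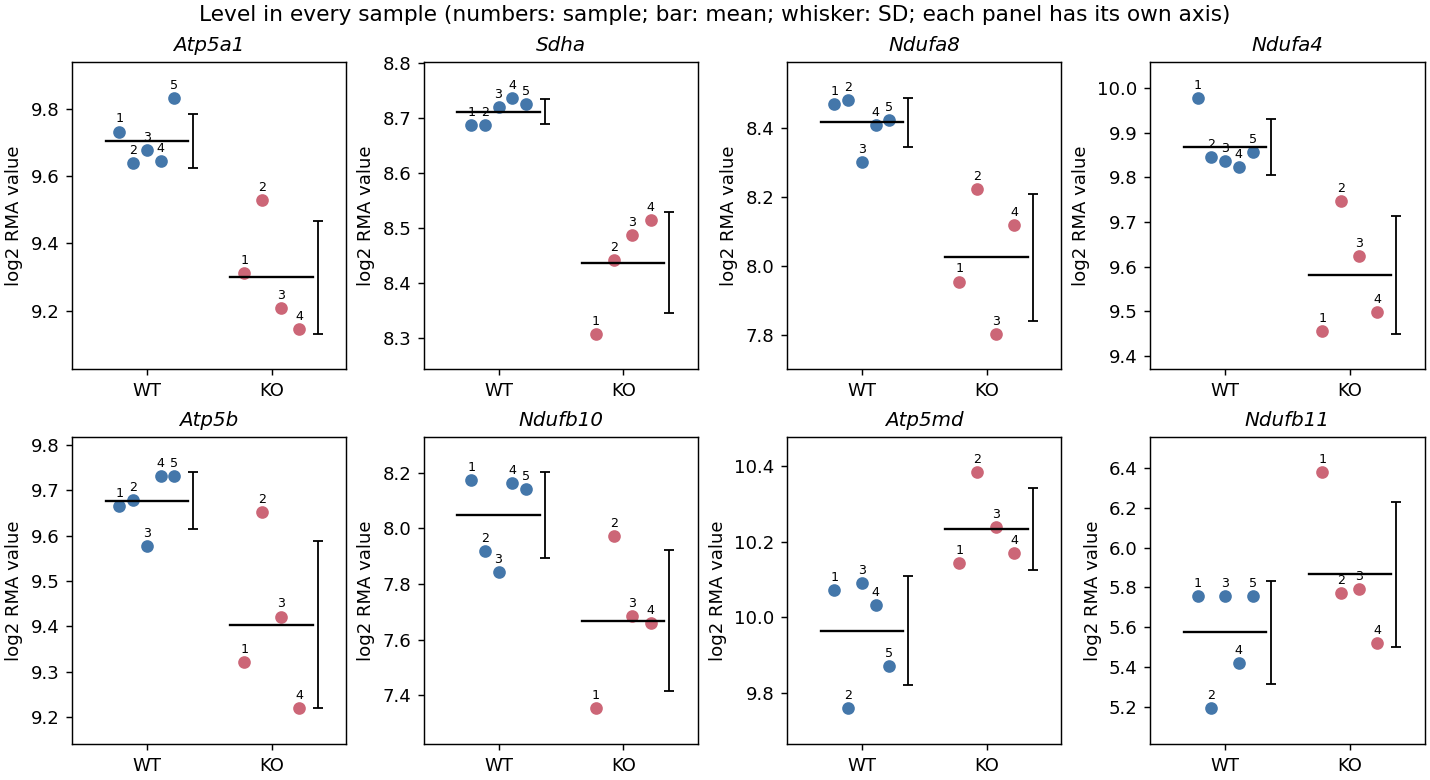
Values of single genes in each sample (log2 RMA), 5 WT and 4 KO samples per gene, with the group mean as a bar and its SD as a whisker; axes differ between panels. KO values lie below all WT values for Atp5a1, Sdha, Ndufa8 and Ndufa4, and above them for Atp5md.

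Complex V, ATP synthase, joins a catalytic F1 head to a proton-driven c-ring through central and peripheral stalks. Of 17 genes Atp5a1 fell, none rose and 16 did not pass (median -0.064). All 5 F1 genes had a lower mean in KO samples. Atp5b, the catalytic beta subunit, read 9.67, 9.68, 9.58, 9.73 and 9.73 in WT and 9.32, 9.65, 9.42 and 9.22 in KO samples (difference -0.27, limma adjusted p = 0.156). KO sample 2 again lay within the WT range. The limma adjusted p was 0.0326 without KO sample 2 and up to 0.295 without another single sample. Atp5b passed in 1 of these 9 fits. Atp5d, the delta subunit, read 9.74, 9.58, 9.76, 9.78 and 9.60 in WT and 9.57, 9.81, 9.20 and 9.38 in KO samples (difference -0.20, limma adjusted p = 0.464). Atp5c1, the gamma subunit of the central stalk, read 6.77, 6.67, 6.62, 6.62 and 6.84 in WT and 6.62, 6.80, 6.66 and 6.53 in KO samples (95% interval of the difference -0.22 to 0.12). Both overlapped. Atp5e, the epsilon subunit, read 11.38, 11.20, 11.28, 11.29 and 11.28 in WT and 11.18, 11.43, 11.21 and 11.16 in KO samples (95% interval -0.20 to 0.12).

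The c-ring protein is encoded by 3 genes that differ in their import signal. Atp5g2 read 9.98, 9.84, 9.91, 9.96 and 9.99 in WT and 9.56, 10.17, 9.69 and 9.78 in KO samples (difference -0.14, limma adjusted p = 0.63). Atp5g3 read 8.76, 8.64, 8.77, 8.64 and 8.64 in WT and 8.50, 8.83, 8.64 and 8.37 in KO samples (difference -0.10, limma adjusted p = 0.67). In both, KO sample 2 held the highest of all values. Atp5g1, close to the median of all probe sets, read 4.08, 4.34, 3.79, 4.31 and 4.53 in WT and 4.53, 4.54, 4.34 and 4.34 in KO samples (difference 0.23, limma adjusted p = 0.487).

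The small membrane subunits of ATP synthase differed in direction from the F1 genes, with a higher mean in KO samples for 4 of 5 and a median of 0.12; the difference between these sets was not tested. Atp5md, a small protein of the dimer interface, read 10.07, 9.76, 10.09, 10.03 and 9.87 in WT and 10.14, 10.38, 10.24 and 10.17 in KO samples. All KO values were above all WT values, as for 1.76% of all genes and 2.34% of the brighter ones. The difference of 0.27 did not pass (limma adjusted p = 0.16). Atp5l, Atp5mpl and Atp5k differed by 0.14, 0.12 and 0.076, and Atp5j2 by -0.13, none past the test. The 4 peripheral stalk genes Atp5pb, Atp5h, Atp5j and Atp5o differed by -0.17 to 0.057.

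The spread among KO samples was read with and without KO sample 2, the highest KO sample for most subunit genes. Leaving out such a sample tends to narrow the spread by construction, and no other sample was left out for this comparison. Over the 72 brighter subunit genes, the SD was larger among KO than among WT samples for 81.9%, against 66.8% of the 11321 brighter genes; without KO sample 2 the shares were 59.7% and 58.4%. KO sample 2 was the highest KO sample for 58 of the 72 (80.6% against 34.2%) and lay above every WT sample for 32 (44.4% against 24.0%). KO sample 3 lay below every WT sample for 47 (65.3% against 35.9%), KO sample 1 for 36 of the 72 (against 31.9%) and KO sample 4 for 30 (41.7% against 33.5%). Among WT samples, WT sample 1 was highest for 29 of the 72 (40.3% against 22.9%). The pattern held in complexes I, III, IV and V, where KO sample 2 was the highest KO sample for 24 of 31, 6 of 7, 14 of 19 and 16 of 17 genes, and not in complex II, where this was so for 1 of 4.

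**Figure D3:**
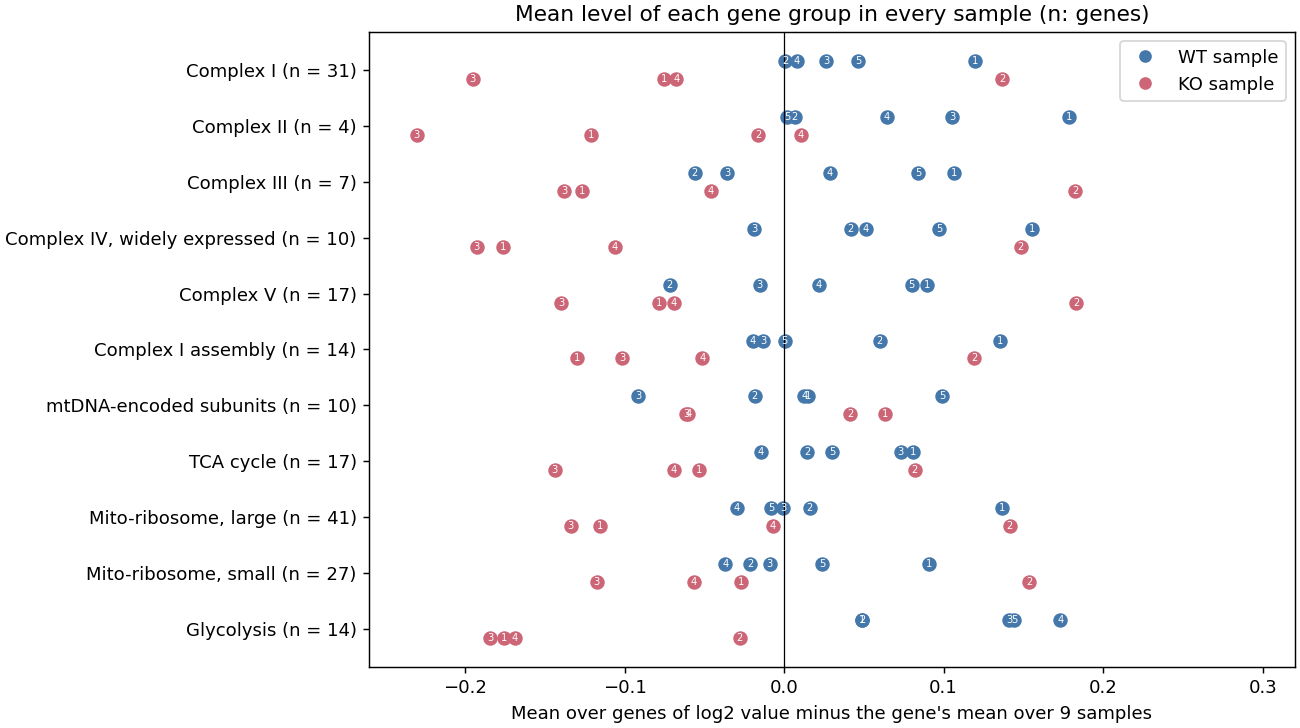
Mean level of the genes of each complex and of other gene lists in each sample, relative to each gene's mean over all 9 samples (log2 scale). In complex I KO sample 2 lies at 0.14, above all 5 WT samples, and KO samples 1, 3 and 4 lie below them; numbers in the points are sample numbers.

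The mean level of the 78 subunit genes, relative to each gene's mean over all samples, was 0.10, -0.017, 0.0038, 0.024 and 0.060 in WT samples 1 to 5. It was -0.090, 0.14, -0.15 and -0.068 in KO samples 1 to 4. KO sample 2 thus exceeded every WT sample and the other 3 KO samples lay below every WT sample. In KO sample 2 the mean of the 9 CD8 T and NK cell markers stood at 0.15, above every WT sample (-0.099 to 0.11), but single markers differed in direction. Cd8b1 was at 7.52 (6.16 to 6.63 in WT) and Klrd1, which is below the median of all probe sets in WT, at 4.24 (2.75 to 3.41 in WT). Cd8a and Klrk1 of KO sample 2 were also above every WT sample. Gzmb, at 4.83, was below every WT sample (5.75 to 6.45), and Klrb1c, Ncr1, Prf1 and Eomes lay within the WT range. Some of these shifts were not particular to KO sample 2. Cd8b1 also exceeded every WT sample in KO samples 1 and 3 (6.87 and 7.10), and Klrd1 in KO sample 1 (3.50). Gzmb was lower still in KO samples 1 and 3 (4.51 and 4.32). The B cell markers of KO sample 2 stood at 0.072, the myeloid markers at -0.31 and the 3 erythroid markers at -0.16, each within the WT range. The inducible heat shock genes Hspa1a and Hspa1b, which varied from -4.81 to 2.33 between samples, stood at 2.26, as high as in WT samples 3 to 5. The Stk4 value of KO sample 2 was the highest of the KO samples. The part of these values in the subunit levels was not tested.

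Counts of subunit genes depended on which samples were used. KO sample 2 was the highest KO sample for most of these genes, so leaving it out makes them read lower in KO samples by construction. Without it, 19 of the 72 were lower in all KO than in all WT samples (26.4%, against 13.5% of the brighter genes), the median difference of the 72 was -0.17 and 83.3% of means were lower, against 60.7%. The calls were then Atp5a1, Atp5b, Ndufa4 and Ndufa8 (5.56% of the 72, against 4.98%), and Sdha had a limma adjusted p of 0.0636. Without any WT sample, KO sample 1 or KO sample 3 no subunit gene passed, and without KO sample 4 only Sdha did.

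**Figure D4:**
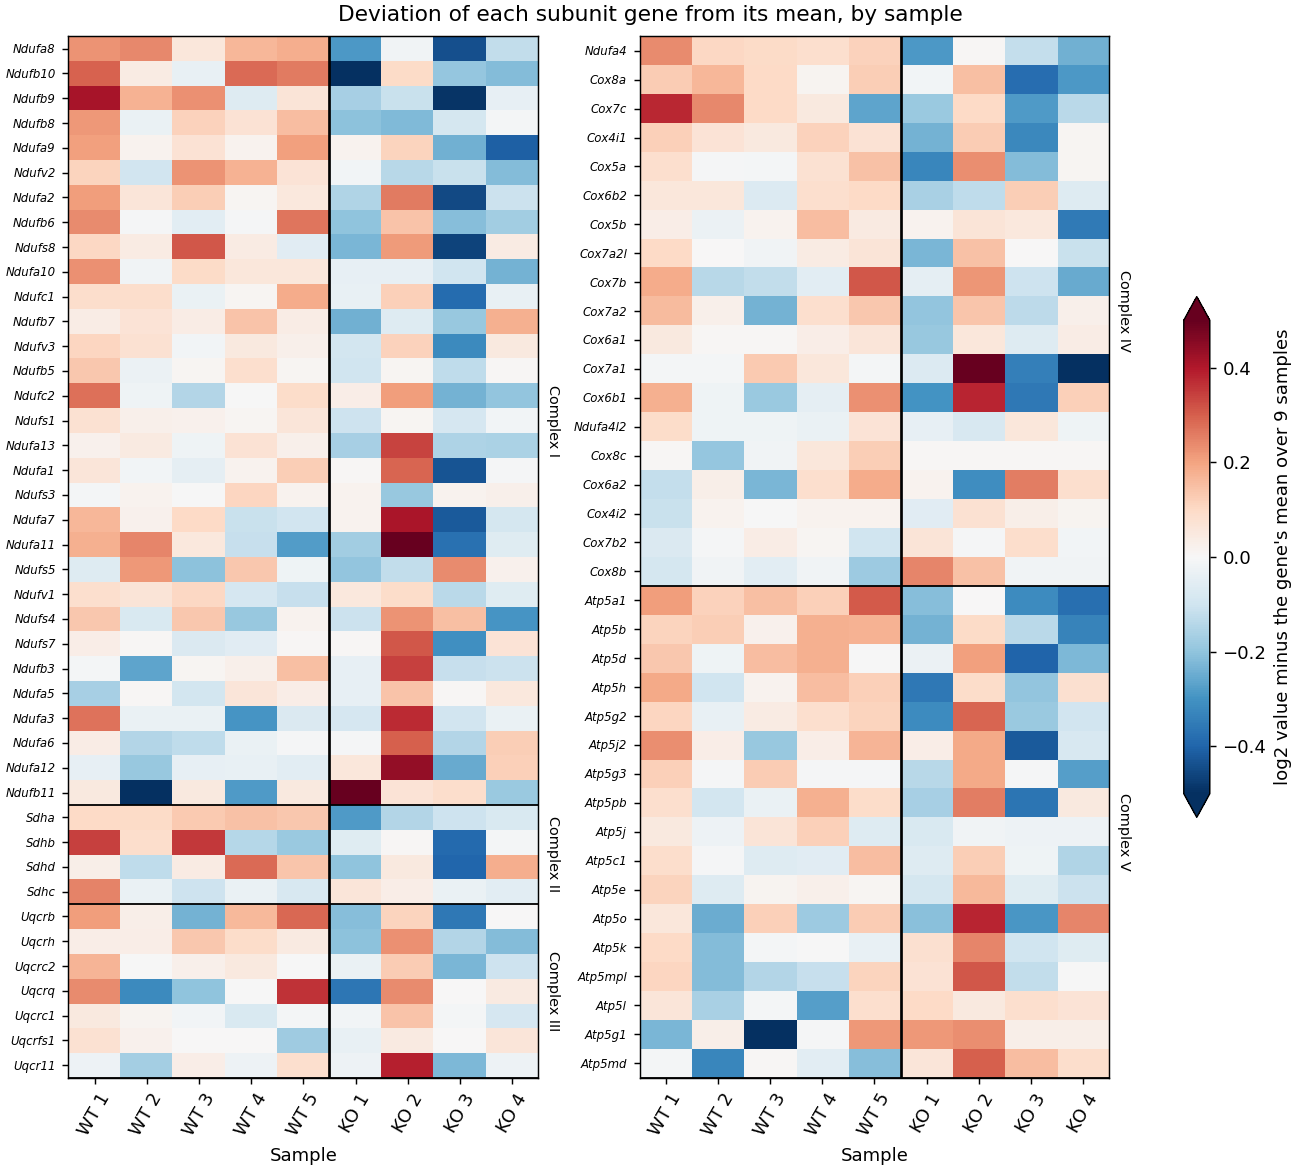
Level of each subunit gene (rows, by complex) in each sample (columns), relative to the gene's mean over all 9 samples on the log2 scale. The column of KO sample 2 is mostly above the mean in complexes I, III, IV and V, and that of KO sample 3 is mostly below it.

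Subunits encoded in mitochondrial DNA had nearly equal means. The 10 measured of 13 (ND1 to ND6 with ND4L, CYTB, COX1 and COX3) had differences between -0.11 and 0.061 with a median of 0.0001, and none passed. ND1 read between 11.41 and 11.57 in WT and between 11.42 and 11.52 in KO samples. Their mean level ran from -0.091 to 0.099 in WT and from -0.062 to 0.063 in KO samples, with KO sample 2 at 0.042, within the WT range.

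Other nuclear genes of the pathway were read beside the subunits. Cyc1, Cycs, Ndufab1 and Atpif1, which encode cytochrome c1, cytochrome c, the acyl carrier subunit of complex I and the ATP synthase inhibitor, all had lower means and none passed (median -0.13). None of 14 complex I assembly factors (median -0.067), 13 assembly factors of complexes II, III and V (median 0.037) or 18 of complex IV (median -0.056) passed. Genes of the large and small mitochondrial ribosomal subunits, 41 and 27 measured, had medians of -0.039 and -0.032 with none past the test. The high level of KO sample 2 was also seen outside the subunits. It exceeded every WT sample for small and large mitochondrial ribosomal genes (0.15 against at most 0.091, and 0.142 against at most 0.137), assembly factors of complexes II, III and V (0.13 against 0.073), biogenesis regulators (0.069 against 0.025) and, narrowly, tricarboxylic acid cycle enzymes (0.0818 against 0.0807). For assembly factors of complexes I and IV and for carrier and import genes it was the highest KO sample but lay within the WT range.

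Regulators of mitochondrial biogenesis, 16 measured, had a median of 0.0031 and none passed. Nrf1, whose motif is marked in the promoters of Sdha and Ndufa8, read 7.24, 7.13, 7.32, 7.17 and 7.34 in WT and 7.57, 7.65, 7.52 and 7.11 in KO samples (difference 0.22, limma adjusted p = 0.374). Tfam, which packages and transcribes mitochondrial DNA, read 6.05, 6.11, 5.88, 6.31 and 6.02 in WT and 6.02, 6.02, 5.56 and 5.58 in KO samples (difference -0.28, limma adjusted p = 0.336). Neither gene separated the groups. Of the 16 regulators, 8 had a lower and 8 a higher mean in KO samples. Polrmt was the only 1 without overlap, higher in all KO than in all WT samples (difference 0.30, limma adjusted p = 0.125). Such separation was seen for 1.76% of all genes and 2.34% of the brighter ones. Polg2 had the largest difference (0.40, limma adjusted p = 0.176), and its groups overlapped.

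Pathways that feed the chain were read beside it. None of 17 tricarboxylic acid cycle enzymes passed (median -0.10, 14 lower). Of 21 carrier and import genes 1 fell: Slc25a11, the mitochondrial oxoglutarate carrier, fell from 7.88 ± 0.14 (SD, n = 5) to 7.20 ± 0.23 (SD, n = 4) without overlap (limma adjusted p = 0.0145). Glycolytic genes had lower means in KO samples for 14 of 14 measured (median -0.18), with 1 past the test. That gene, Pgk1, a phosphoglycerate kinase that makes ATP in the cytosol, fell from 8.68 ± 0.11 (SD, n = 5) to 8.06 ± 0.28 (SD, n = 4; limma adjusted p = 0.0276). KO sample 2 was the highest KO sample for glycolytic genes too, at -0.028, but there it stayed below every WT sample (0.049 to 0.17).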

How the data were processed

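The deposited table holds log2 expression per probe set. Per the submitters' processing notes, the authors used RMA and Affymetrix Expression Console 1.1; 1 to 20 ng of total RNA was amplified per sample, per the labels' protocols, and no source used here names a genome build for the array. Of 41345 probe sets, 23521 have 1 gene symbol, 1814 several and 16010 none. Each of 22180 genes was read from its brightest probe set by the mean of all 9 samples; 9 subunit genes have more than 1. All 80 members matched RefSeq by Entrez ID. Sample medians ran from 3.99 to 4.08, and 9 arrays limit the precision.

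KO and WT were compared with limma 3.58.1 in R 4.3.3 (lmFit and eBayes, 2-sided, Benjamini-Hochberg over all genes, threshold 0.05); the script was tested on simulated data. Values in every sample are given for members past the threshold, the 3 of each complex with the smallest p, core and catalytic subunits, isoform pairs, c-ring genes and the 5 largest differences each way. Members, lists and motifs were chosen with earlier results of these data known. Alternatives were a replicate block, a filter on dim genes, other probe sets per gene, median and quantile scaling, other variance and sample weights, leaving out samples, and a heat shock covariate.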

Additional observations from a re-analysis of the deposited data

Results flagged for a closer look

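In 10 of the 78 groups checked (39 genes in 2 genotypes), 1 sample stood far from the rest by Dixon's test at its 95% level. Chance flags about 1 in 20 groups of independent, normally distributed values. Here some values are tied, the genes share the same 9 arrays and some were chosen by p or size. No share over all genes was taken, so the 10 are not shown to be an excess. KO sample 2 stood above the other KO samples for Atp5e (11.43, the next being 11.21) and Uqcrh (8.87, next 8.50), and below them for Ndufs3 (6.17, next 6.37). KO sample 3 stood below the other KO samples for Sdhb (6.59, next 6.92). WT sample 1 stood above the other WT samples for Ndufa4 (9.98, next 9.86) and Sdhc (7.36, next 7.08), and below them for Cox4i2 (3.82, next 3.93), which lies below the median of all probe sets. WT sample 2 stood low for Ndufa12 (8.67, next 8.81), WT sample 4 high for Ndufs3 (6.46, next 6.37) and WT sample 5 low for Uqcrfs1 (5.79, next 5.98).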

How the results depend on the processing

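The median over all members stayed below 0 under all alternatives run, and from -0.16 to -0.058 when 1 sample was left out. The number of subunit genes that fell, 3, was 1 with the heat shock covariate (Sdha) and 0 to 4 when 1 sample was left out. It was 1 with median centring and 1 with quantile normalisation, Atp5a1 in both. After quantile normalisation all genes split into 306 lower and 170 higher calls, against 420 and 95. With the mean or the dimmest of the probe sets per gene, 2 subunit genes fell, Atp5a1 and Sdha. Over the 10 alternatives other than leaving out 1 sample, Atp5a1 passed in 8, Sdha in 6 and Ndufa8 in 4. The bright members' median was -0.031 after quantile normalisation, against 0.016 over all bright genes. With the replicate number as a block 0 subunit genes and 178 genes in all passed, against 515. The same-numbered samples did not deviate together (correlations 0.042, -0.12, 0.011 and 0.041), and none of WT samples 1 to 4 correlated best with the KO sample of its own number. Whether same-numbered samples share more than a number, such as a day of work, is not stated. Without KO samples 2 and 4 the medians of complexes II, III and IV were -0.31, -0.18 and -0.15, and Ndufa12 reversed to -0.024. Leaving out 1 sample gave complex II medians from -0.25 to -0.088 and complex III medians from -0.12 to 0.024. In the other gene lists, the replicate block left 0 calls and the filter on dim genes gave 2 glycolytic genes and 2 Treg markers. The causes of these shifts were not tested. Genes below the median of all probe sets are not shown to exceed background.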

Other observations

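A further probe set exists for 9 subunit genes. Besides Ndufa8, the second probe sets of Atp5d (-0.21 against -0.20), Atp5e (-0.0030 against -0.043), Atp5g2 (-0.13 against -0.14), Ndufa11 (-0.15 against -0.035), Ndufa12 (0.26 against 0.16) and Cox7b (-0.29 against -0.081) differed in the same direction as the probe set used. Those of Atp5h (0.23 against -0.17) and Cox5b (0.12 against -0.099) differed in the opposite direction. None of these second probe sets passed the limma test. The pseudogenes Atp5c1-ps and Uqcrh-ps1 were under the median of all probe sets, with differences of -0.067 and -0.34 that did not pass.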
